A study of Homo sapiens with 12 samples.

Results

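The genes described here carry out homologous recombination, the Fanconi anaemia pathway of cross-link repair and the ATR and ATM branch of the replication checkpoint. They were taken from a list of 49 gene symbols, and a gene was used where the array table held an entry annotated to that gene alone whose 12 values carried 3 decimals. By that rule 40 of the 49 genes were used, out of 16913 genes in the whole table, and 36 of the 40 had a mean log2 signal over the 12 arrays of at least 5.94, the level above which genes were tested. BRIP1, RAD52, TP53BP1 and FANCM lay under that level and are given as values with no test. RAD51B, EXO1, ATRIP, EME1 and ERCC1 had only entries with fewer decimals, whose columns did not lie nearest to their own replicates, and BRCA2, RBBP8, FANCA and FANCD2 had no entry annotated to them alone, so these 9 genes were not analysed here. Each used gene had 1 set of values, repeated on all of its probe sets, so the values do not tell which transcript of the gene gave the signal.

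RNA was measured from A673 and TC32, 2 established Ewing sarcoma cell lines, each exposed for 6 h to the solvent DMSO or to THZ531 at 100 nM or 500 nM. This gave 6 groups of 2 arrays, named biological replicates in the labels, and 12 arrays in all. The sample labels spell the compound THZ_5_31_1, and the series' design text gives it as THZ531. The series asked what THZ531 does to gene expression in Ewing sarcoma cells, and each dose was compared here with DMSO, the higher dose with the lower, and the lines with each other. Every group, controls included, was grown in the same serum-containing medium, and each line stands for 1 tumour, so a difference between the lines is a difference between these 2 cultures. With 2 arrays a group, the p-values measure only the spread between these arrays. For the values as deposited that spread was pooled over genes of like signal, so it is not each gene's own. It was also pooled over the 6 groups. The A673 pair at 500 nM had a median offset of -0.52 (log2, second minus first array), beside -0.12 to 0.02 in the other pairs. That offset enters the SE of every comparison as deposited, also of those that do not use this pair.

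Homologous recombination repairs broken DNA by copying an intact sister strand. Broken ends are first trimmed by nucleases, BRCA1 with BARD1 and PALB2 then prepares the ends for strand exchange, further proteins carry out and steady that exchange, and helicases and structure-specific nucleases take the joined molecules apart. The Fanconi proteins recognise cross-linked DNA and tag the FANCI and FANCD2 pair with ubiquitin, while the kinases ATM and ATR sense breaks and stalled forks and signal through CHEK2 and CHEK1. THZ531 binds covalently to CDK12 and CDK13 and blocks these kinases, which phosphorylate the tail of RNA polymerase II during elongation, and loss of CDK12 activity is known for lowering transcripts of DNA repair genes. The driver of Ewing sarcoma is a fusion gene, usually EWSR1 joined to FLI1, whose product binds ETS sites.

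The promoter sequences of 4 of the genes are shown because they stand at the ends of the range of changes described below: PALB2 and BLM had the lowest differences from DMSO at 500 nM in both lines, and ATM and FANCC were among the 3 genes with the highest difference from DMSO at every dose in both lines. They were chosen after these values were seen. Each sequence is the 250 bases upstream of the RefSeq gene start on GRCh38.p14, written 5′ to 3′ on the strand of the gene, at chr16:23641311-23641560 on the minus strand for PALB2, chr15:90717096-90717345 on the plus strand for BLM, chr11:108222817-108223066 on the plus strand for ATM and chr9:95317710-95317959 on the minus strand for FANCC. Capitals mark letters that match a searched motif on either strand.
PALB2: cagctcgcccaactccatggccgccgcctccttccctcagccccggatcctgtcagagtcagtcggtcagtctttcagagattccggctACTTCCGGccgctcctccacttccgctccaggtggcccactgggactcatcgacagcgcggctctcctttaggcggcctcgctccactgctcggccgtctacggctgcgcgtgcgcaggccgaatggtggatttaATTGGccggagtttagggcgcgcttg
BLM: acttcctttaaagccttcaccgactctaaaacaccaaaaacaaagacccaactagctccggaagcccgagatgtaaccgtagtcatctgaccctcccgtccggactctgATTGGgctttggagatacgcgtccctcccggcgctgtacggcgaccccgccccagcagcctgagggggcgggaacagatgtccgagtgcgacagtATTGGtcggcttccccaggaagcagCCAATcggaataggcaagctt
ATM: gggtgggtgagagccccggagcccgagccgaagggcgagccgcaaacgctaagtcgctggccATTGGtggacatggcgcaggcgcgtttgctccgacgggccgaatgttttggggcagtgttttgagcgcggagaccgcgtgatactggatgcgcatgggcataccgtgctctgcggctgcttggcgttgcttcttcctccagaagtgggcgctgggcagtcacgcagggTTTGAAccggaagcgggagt
FANCC: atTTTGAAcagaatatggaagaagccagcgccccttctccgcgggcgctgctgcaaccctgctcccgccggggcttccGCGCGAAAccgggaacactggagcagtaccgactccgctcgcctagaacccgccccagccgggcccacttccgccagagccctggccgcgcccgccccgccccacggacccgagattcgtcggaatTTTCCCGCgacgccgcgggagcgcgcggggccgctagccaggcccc
The motifs searched were the CCAAT box (CCAAT, or ATTGG on the other strand), the cell cycle homology element CHR (TTTGAA), the E2F site (TTTCCCGC, TTTCGCGC, TTTGCCGC or TTTGGCGC), the ETS site (CCGGAAGT) and the NRF1 site by its palindromic consensus, on both strands in each case. No matches of different motifs overlapped. Windows of RefSeq were found for 31 of the 36 tested genes, and 16 of these 31 (51.6%) held a CCAAT box, against 35.4% of the 8397 windows of all tested genes and 33.0% of 27305 windows of all genes in the RefSeq table. The CHR element was in 4 windows (12.9%, against 8.43% of the tested genes' windows), the ETS site in 3 (9.68% against 7.31%), the E2F site in 1, FANCC (3.23% against 4.66%), and the NRF1 site in 0 (against 2.10%). BLM held 3 CCAAT boxes and PALB2 1, and ATM, which moved the other way from both at 100 nM, also held 1. Among the others, XRCC3 held 5, CHEK2 and CLSPN 3 each, and BRCA1, BARD1, XRCC2 and SLX4 0. Whether the number of boxes goes with the changes was not tested.

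The deposited values are log2 signals. Their medians over all 16913 genes were 7.32 and 7.07 on the A673 DMSO arrays, 6.61 and 6.54 with 100 nM and 6.60 and 6.13 with 500 nM, and on the TC32 arrays 6.54 and 6.47 under DMSO, 6.36 and 6.24 with 100 nM and 5.74 and 5.68 at 500 nM. The medians were thus lower in the treated groups of each line and lower in TC32 than in A673. External RNA controls were added to the RNA, and whether the authors scaled the arrays to them is not stated in the sources used here, so a shift of all genes together can be a difference in RNA amount or in scaling. In such bulk samples fewer cells and less RNA per cell cannot be told apart. The main counts of called genes are therefore given as deposited and also on a relative scale, for which the median over all 16913 genes was subtracted from each array. Values are as deposited unless the relative scale is named. Subtracting the medians moved every difference from DMSO up by 0.62 at 100 nM and 0.83 at 500 nM in A673, and by 0.21 and 0.79 in TC32. Replicate arrays correlated across genes at 0.991 to 0.997, and the second A673 array at 500 nM lay 0.52 (log2) under the first in the median gene, while the other pairs differed by at most 0.12. Of 8 Ewing sarcoma markers 7 were in the table, and all 7 (FLI1, NKX2-2, CCND1, STEAP1, CD99, PRKCB and BCL11B) lay above the level of testing in both lines under DMSO, between 8.98 and 13.8. PTPRC, EPCAM, CDH1 and CDH5, which define blood, epithelial and endothelial cells, lay under it in both lines. Of the 12 markers of those cell types, 5 (CD79A, HBB, CLDN4, MUC1 and VWF) were above the level in both lines, between 6.19 and 7.76. PECAM1 (6.49), KDR (6.37) and CD3E (6.24) were above it in A673 and under it in TC32. The part of these markers in the results was not tested.

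At 100 nM THZ531, most of the 36 tested genes were lower than under DMSO, and PALB2, BLM, BRCA1 and MUS81 were among the 4 with the lowest differences in both lines. In A673, 32 of the 36 were called lower, where 58.7% of all tested genes were, and 2 were called higher, where 1.31% were. The median difference of the 36 was -1.02 on the log2 scale, beside -0.52 over all 10148 tested genes. In TC32, 18 of the 36 were lower (20.9% of all tested genes) and 3 were higher (5.56%), with a median of -0.56 beside -0.07. Called means an adjusted p under 0.05 in a limma model fitted to all 12 arrays and adjusted over all tested genes. After median subtraction, 20 genes were lower and 3 higher in A673 (17.1% and 24.4% of all tested genes), and 19 were lower and 3 higher in TC32 (21.2% and 30.6%). The 12 genes that were lower in A673 only as deposited were RAD51D, XRCC3, MRE11, RECQL4, CHEK1, TIMELESS, RNF8, FANCB, FANCE, FANCG, FANCL and ERCC4. In TC32 the 18 lower genes were all lower on the relative scale too, where RNF8 joined them. Quantile normalisation also ended the calls of CLSPN in A673 (-0.20) and XRCC3 in TC32 (-0.44). With only the arrays of 1 line in the fit, 26 genes were lower in each line at 100 nM. For fits of 1 line, quantile normalisation and left-out arrays, shares over all tested genes were not counted. Such counts therefore do not tell whether these genes moved more than all genes. RAD51D, RAD54L, MRE11, NBN, RNF8, FANCE, FANCI and ERCC4 joined the lower genes of TC32 in that fit, and RECQL4, CHEK1, TIMELESS, RNF8, FANCE and ERCC4 left those of A673. Without either A673 array at 500 nM, 25 genes were lower in TC32 at 100 nM, among them RAD54L, MRE11, NBN, RNF8, FANCE, FANCG and FANCI, and TIPIN was also lower in A673 (-0.38).

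At 500 nM the number of lower genes was 34 of 36 in A673 and 33 of 36 in TC32, and no gene was called higher in either line. Among all tested genes 82.5% were lower and 0.946% higher in A673, and 62.9% were lower and 0.946% higher in TC32. At an unadjusted limma p under 0.05 the counts of higher genes were 0 in A673 and 1 in TC32 (0.956% and 0.995% of all tested genes). Quantile normalisation between arrays called 3 and 7 higher, with no share over all tested genes counted. The medians of the 36 were -1.33 in A673 and -1.17 in TC32, beside -0.73 and -0.64 over all tested genes. After median subtraction 22 genes were lower and 2 higher in A673 (27.4% and 29.6% of all tested genes), and 22 were lower and 4 higher in TC32 (30.8% and 41.3%). Lower only as deposited were RAD51D, XRCC3, RAD54B, MRE11, RECQL4, MDC1, FANCG, FANCI and ERCC4 in both lines, WRN, CHEK1 and TIMELESS in A673, and ATR and FANCB in TC32. Quantile normalisation also ended the calls of 4 further genes in A673 (RAD50, ATR, CHEK2 and CLSPN, at -0.26 to -0.03) and 4 in TC32 (BRCA1, WRN, CHEK1 and CHEK2, at -0.14 to -0.01). The relative medians of the 36 were -0.49 and -0.37, where those of all tested genes were 0.10 and 0.15.

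The differences in the 2 lines come from different arrays, but the calls of both rest on 1 fit with a shared estimate of the spread. The genes called in both lines can be counted, and these counts are not independent of each other's arrays. At 100 nM 18 genes were lower in both lines (20.5% of all tested genes were), and RAD54B and ATM were higher in both (1.2%). At 500 nM 33 were lower in both (60.1%) and 0 higher (0.68%). Falls of at least 1 on the log2 scale were called in 18 genes in A673 and 13 in TC32 at 100 nM (14.9% and 8.27% of all tested genes), and in 27 and 23 at 500 nM (33.4% and 33.7%). Across the 36 genes the differences in the lines had a Pearson correlation of 0.956 at 100 nM and 0.930 at 500 nM, against 0.857 and 0.883 over all tested genes, where genes of 1 array share its scaling. On the relative scale 17 genes were lower and 3 higher in both lines at 100 nM (14.2% and 18.4%), and 20 were lower and 2 higher at 500 nM (23.7% and 25.1%).

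Counting by overlap of the arrays, both arrays of 100 nM lay under both DMSO arrays for 33 of the 36 genes in A673 (87.4% of all tested genes) and 30 in TC32 (44.2%), and above them for RAD54B, ATM and FANCC in each line (3.44% and 26.1%). At 500 nM both arrays lay lower for 34 genes in each line (82.9% and 89.0%) and higher for 0 in A673 (1.05%) and for ATM in TC32 (2.08%). From 100 nM to 500 nM both arrays were lower for 18 genes in A673 (38.9%) and 29 in TC32 (83.5%). Falls of at least 1 between the doses were called for 3 genes in A673 (10.4%) and 9 in TC32 (25.7%).

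**Figure D1:**
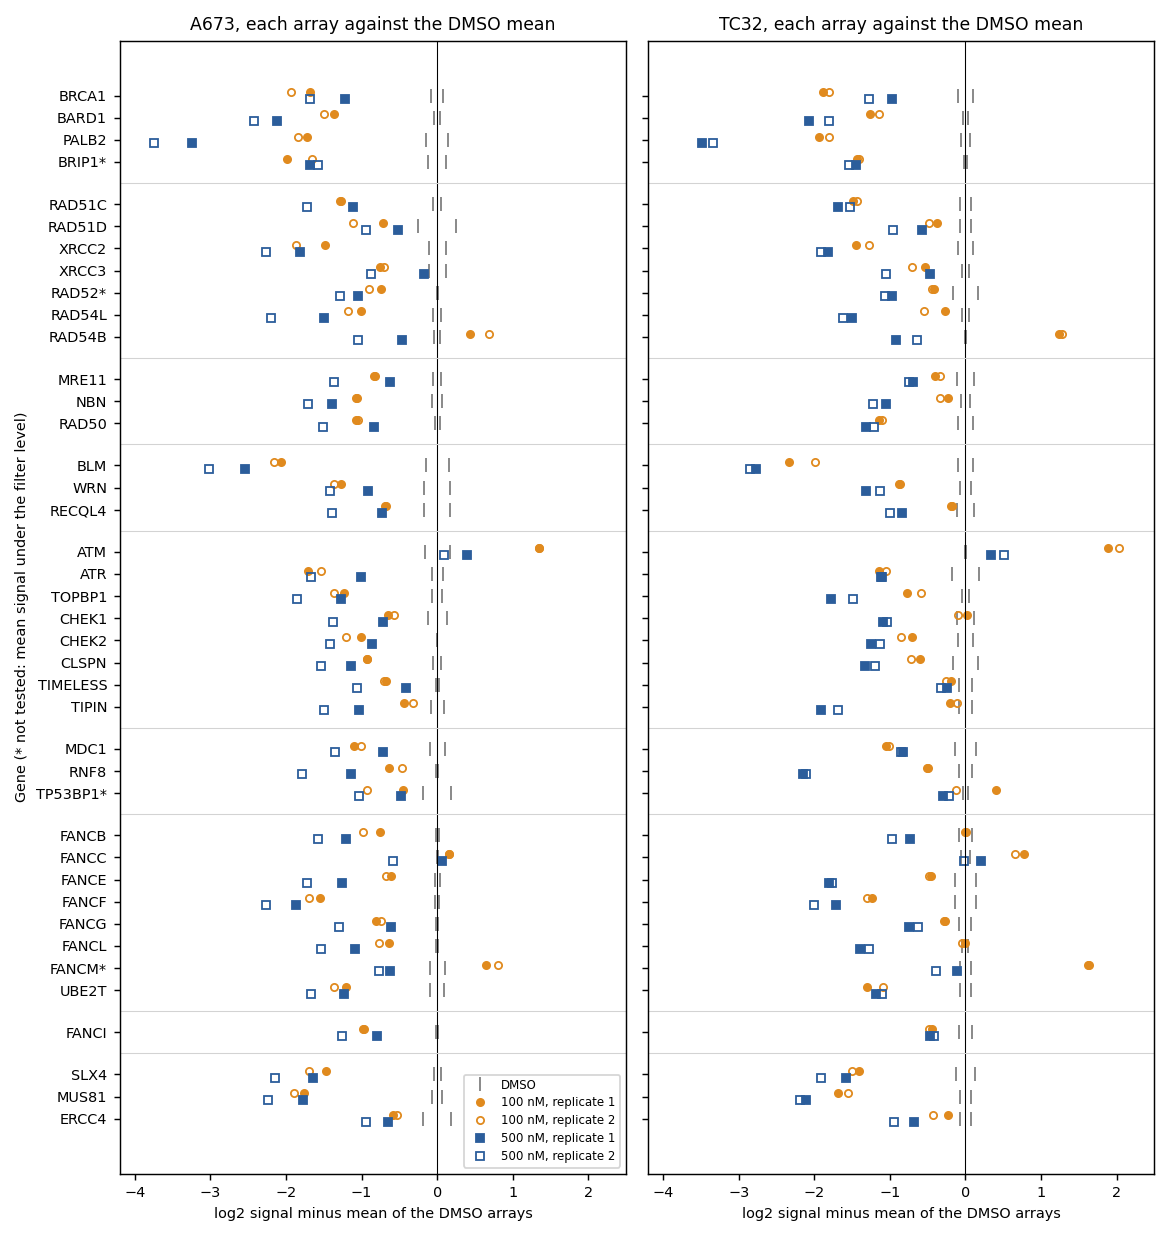
Log2 signal of each THZ531 array minus the mean of the DMSO arrays of its line for the 40 used genes, grouped by role, with A673 on the left and TC32 on the right; grey ticks are the DMSO arrays, orange circles 100 nM and blue squares 500 nM, filled for replicate 1 and open for replicate 2. PALB2 and BLM lie furthest to the left at 500 nM, and ATM and RAD54B lie to the right of the DMSO arrays at 100 nM.

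Among BRCA1 and its partners, PALB2, the bridge between BRCA1 and BRCA2, fell in steps with dose and furthest of all 36 genes at 500 nM. Its log2 signal in A673 was 9.44 and 9.15 under DMSO, 7.57 and 7.46 with 100 nM and 6.04 and 5.54 at 500 nM. In TC32 the arrays gave 8.44 and 8.33, then 6.45 and 6.59 and then 4.90 and 5.05. No array of a group overlapped with those of another dose in either line. Against DMSO the fall was 1.78 ± 0.21 (SE) at 100 nM and 3.50 ± 0.21 at 500 nM in A673, an 11.3-fold lower signal at the higher dose (limma adjusted p = 8.75e-60). The falls in TC32 were 1.87 ± 0.21 and 3.42 ± 0.21, the latter 10.7-fold (adjusted p = 3.7e-57). The 500 nM arrays of both lines averaged under the level of testing. After median subtraction PALB2 was still lower by 2.67 in A673 and 2.62 in TC32 at 500 nM (relative differences -2.67 ± 0.12 and -2.62 ± 0.12).

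BRCA1, the ubiquitin ligase that directs breaks towards recombination, was lowest at the lower dose. A673 gave 8.09 and 7.92 under DMSO, 6.32 and 6.07 with 100 nM and 6.78 and 6.33 at 500 nM, and TC32 gave 8.19 and 7.997, then 6.21 and 6.29 and then 7.12 and 6.82. In both lines the 100 nM arrays were the lowest pair, and the 500 nM arrays lay between them and the DMSO arrays, although the nearest arrays of the doses in A673 read 6.33 and 6.32. BRCA1 fell by 1.81 ± 0.21 at 100 nM and 1.45 ± 0.21 at 500 nM in A673 (adjusted p = 4.57e-16 and 3.07e-11), and by 1.84 ± 0.21 and 1.12 ± 0.21 in TC32 (adjusted p = 1.59e-16 and 3.04e-07). Quantile normalisation brought the TC32 difference at 500 nM to -0.0058 with no call. BARD1, the obligate partner of BRCA1 in the ligase, fell stepwise instead. Its signals were 9.01 and 8.92, then 7.61 and 7.47 and then 6.85 and 6.55 by dose in A673 and 8.46 and 8.39, then 7.17 and 7.28 and then 6.36 and 6.62 in TC32. Each dose of BARD1 lay under the one before without overlap, and the falls from DMSO at 500 nM were 2.27 ± 0.21 in A673 and 1.94 ± 0.21 in TC32. The helicase BRIP1 was not tested, as its mean over the 12 arrays was under the level, although its DMSO arrays were above it. It read 6.55 and 6.79 under DMSO in A673 and between 4.68 and 5.09 on the treated arrays. In TC32 it read 6.23 and 6.27 under DMSO and between 4.71 and 4.84 on the treated arrays.

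**Figure D2:**
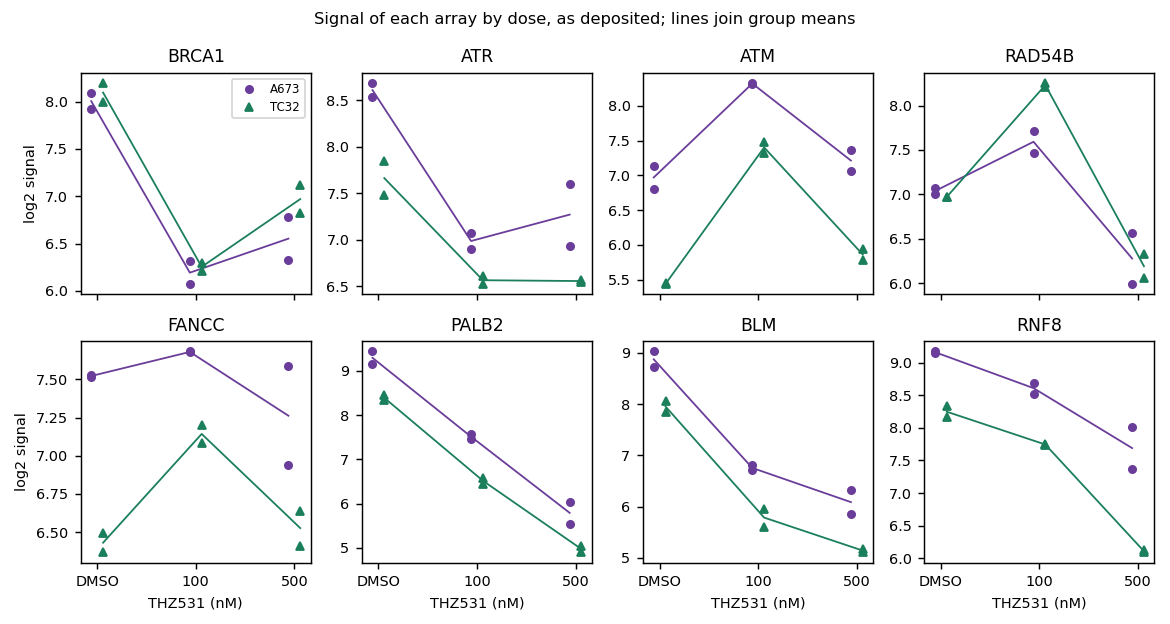
Log2 signal as deposited of each array for 8 genes under DMSO, 100 nM and 500 nM THZ531, with purple circles for A673, green triangles for TC32 and lines through the group means. BRCA1 is lowest at 100 nM in both lines, ATM and RAD54B are highest at 100 nM, and PALB2 and RNF8 fall at each dose.

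The tested genes of strand exchange other than RAD54B fell at both doses or at the higher one as deposited, and the DNA translocase RAD54B moved the other way at 100 nM. Of the 6 tested genes of this group, 5 fell and 1 rose at 100 nM in A673, 3 fell and 1 rose in TC32, and all 6 fell at 500 nM in both lines as deposited. Among all tested genes 58.7% fell in A673 and 20.9% in TC32 with 100 nM, and 82.5% and 62.9% with 500 nM. After median subtraction 3 of the 6 were lower in each of the 4 comparisons (17.1% and 21.2% of all tested genes with 100 nM, 27.4% and 30.8% with 500 nM), and 1 was higher at 100 nM in each line. RAD51C read 10.26 and 10.37 under DMSO, 9.05 and 9.03 with 100 nM and 9.21 and 8.59 at 500 nM in A673, and 9.39 and 9.26, then 7.84 and 7.89 and then 7.65 and 7.80 in TC32. Most of its fall was reached at 100 nM, where it measured 1.28 ± 0.21 in A673 and 1.46 ± 0.21 in TC32, with 1.42 ± 0.21 and 1.61 ± 0.21 at 500 nM. XRCC2 gave 8.32 and 8.10, then 6.73 and 6.34 and then 6.40 and 5.95 in A673 and 7.25 and 7.05, then 5.70 and 5.88 and then 5.33 and 5.25 in TC32. Its treated arrays lay well under the DMSO arrays, and the falls at 500 nM were 2.04 ± 0.22 and 1.86 ± 0.22. The TC32 means of XRCC2 at both doses lay under the level of testing.

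XRCC3 had smaller differences than RAD51C and XRCC2. The A673 arrays read 7.50 and 7.27 under DMSO, 6.63 and 6.68 with 100 nM and 7.21 and 6.51 at 500 nM, and the TC32 arrays 6.45 and 6.54, then 5.95 and 5.79 and then 6.03 and 5.44. The arrays at 500 nM were spread widely, and the first A673 array of that dose lay close to the DMSO pair. XRCC3 fell by 0.73 ± 0.22 and 0.53 ± 0.22 in A673 and by 0.62 ± 0.22 and 0.76 ± 0.22 in TC32, and at 500 nM the sign turned on the relative scale, to 0.31 and 0.03. The call in A673 at 500 nM was lost without the first DMSO array (-0.41) or the second 500 nM array (-0.17), and that in TC32 at 500 nM without the second 500 nM array (-0.47). At 100 nM the call in A673 was lost without the first DMSO array (-0.62) and the call in TC32 without any array of its DMSO and 100 nM groups (-0.70 to -0.54). RAD51D read 7.68 and 7.17 under DMSO, 6.71 and 6.32 with 100 nM and 6.90 and 6.49 at 500 nM in A673, and 6.84 and 6.98, then 6.53 and 6.42 and then 6.34 and 5.95 in TC32. The arrays of the doses overlapped in A673. RAD51D fell by 0.91 ± 0.21 at 100 nM in A673 and by 0.73 ± 0.21 and 0.77 ± 0.21 at 500 nM in A673 and TC32. Both 500 nM values turned on the relative scale (0.10 and 0.03), and they lost their call without the first A673 DMSO array (-0.48) and without the second TC32 array at 500 nM (-0.57).

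RAD54B, which helps remodel joined DNA, was highest at 100 nM in both lines. It read 7.002 and 7.07 under DMSO, 7.47 and 7.72 with 100 nM and 6.57 and 5.99 at 500 nM in A673, and 6.98 and 6.97, then 8.21 and 8.25 and then 6.06 and 6.33 in TC32. The 100 nM arrays stood above all other arrays of their line and the 500 nM arrays below the DMSO arrays. RAD54B rose by 0.55 ± 0.21 at 100 nM in A673 (adjusted p = 0.0176) and by 1.26 ± 0.21 in TC32 (adjusted p = 4.04e-08), then fell between the doses by 1.31 ± 0.21 and 2.04 ± 0.21. The A673 rise lost its call without the first DMSO array (0.52) or the second 100 nM array (0.43), and it had an adjusted p of 0.105 with only the 6 A673 arrays in the fit. Its fall from DMSO at 500 nM, 0.76 ± 0.21 and 0.78 ± 0.21, was 0.07 and 0.01 in the other direction on the relative scale. RAD54L, its close relative, did not share the rise. It fell by 1.09 ± 0.21 at 100 nM in A673, differed from DMSO by -0.41 ± 0.21 in TC32 (adjusted p = 0.139), and fell by 1.85 ± 0.21 and 1.56 ± 0.21 at 500 nM. RAD52, an annealing protein under the level of testing, read between 5.54 and 6.83 in A673 and between 5.07 and 6.30 in TC32.

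Of the genes that trim broken ends, the 3 subunits of the MRN complex were tested, and all 3 fell at both doses in A673 as deposited. MRE11, the nuclease, fell by 0.83 ± 0.21 and 1.00 ± 0.21 there, NBN, which binds ATM, by 1.06 ± 0.21 and 1.55 ± 0.21, and RAD50, the ATPase, by 1.06 ± 0.21 and 1.18 ± 0.21. In TC32 at 100 nM RAD50 passed the test, with a fall of 1.12 ± 0.21, while MRE11 differed by -0.37 ± 0.21 and NBN by -0.28 ± 0.21 (adjusted p = 0.199 and 0.372). Both of these passed with only the TC32 arrays in the fit (limma adjusted p = 0.00549 and 0.0244) and without either A673 array at 500 nM. The arrays of RAD50 read 9.62 and 9.55 under DMSO, 8.51 and 8.54 with 100 nM and 8.75 and 8.07 at 500 nM in A673, and 9.01 and 8.80, then 7.76 and 7.80 and then 7.59 and 7.70 in TC32. Its treated arrays lay under the DMSO arrays of each line. The difference of effect between the lines was not past the threshold for any of the 3 (adjusted p from 0.106 to 0.873). At 500 nM in TC32 all 3 fell, by 0.72 ± 0.21 for MRE11, 1.14 ± 0.21 for NBN and 1.26 ± 0.21 for RAD50. The MRE11 value turned to 0.07 on the relative scale and lost its call without the first TC32 DMSO array (-0.61).

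The RecQ helicases unwind recombination intermediates, and BLM, which dissolves double Holliday junctions, had larger falls than WRN and RECQL4. BLM read 8.72 and 9.02 under DMSO, 6.80 and 6.71 with 100 nM and 6.33 and 5.85 at 500 nM in A673, and 8.05 and 7.85, then 5.61 and 5.96 and then 5.18 and 5.11 in TC32. Every treated array was far below the DMSO arrays, and the 500 nM arrays were below the 100 nM arrays in both lines. At 100 nM the falls of 2.12 ± 0.21 in A673 (4.34-fold, adjusted p = 5.43e-21) and 2.16 ± 0.21 in TC32 (4.48-fold, adjusted p = 6.3e-22) had the lowest fitted values of the 36 genes in each line. At 500 nM they were 2.78 ± 0.21 (6.88-fold) and 2.81 ± 0.21 (7-fold), and the TC32 means at both doses lay under the level of testing. WRN, which also carries an exonuclease, fell by 1.32 ± 0.21 and 1.16 ± 0.21 in A673 and by 0.87 ± 0.21 and 1.22 ± 0.21 in TC32. RECQL4, which also acts at replication origins, fell by 0.68 ± 0.21 and 1.06 ± 0.21 in A673 and by 0.92 ± 0.21 at 500 nM in TC32, where 100 nM gave -0.18 ± 0.21 (adjusted p = 0.629). No RECQL4 difference from DMSO passed the test on the relative scale, and its A673 call at 100 nM as deposited was lost without the first DMSO array (-0.52).

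In the checkpoint group of 8 tested genes, ATM rose at 100 nM and ATR fell. ATM, the kinase that answers double-strand breaks, read 6.80 and 7.14 under DMSO, 8.32 and 8.32 with 100 nM and 7.36 and 7.06 at 500 nM in A673, and 5.45 and 5.43, then 7.33 and 7.47 and then 5.78 and 5.95 in TC32. The 100 nM arrays stood above all others of their line, and the DMSO arrays of TC32 averaged under the level of testing. ATM rose by 1.35 ± 0.21 in A673 (2.55-fold, adjusted p = 3.08e-09) and by 1.96 ± 0.21 in TC32 (3.89-fold, adjusted p = 2.22e-18). At 500 nM it differed from DMSO by 0.24 ± 0.21 and 0.42 ± 0.21 as deposited (adjusted p = 0.264 and 0.0699). The relative 500 nM differences were 1.08 ± 0.16 and 1.21 ± 0.16 and passed the test (adjusted p = 4.41e-06 and 5.44e-07). The TC32 value at 500 nM passed as deposited with only TC32 arrays in the fit (adjusted p = 0.00521) and without either A673 array at 500 nM.

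ATR, the kinase that answers single-stranded DNA at stalled forks, was already at its low level at 100 nM. A673 gave 8.54 and 8.69, then 6.90 and 7.07 and then 7.61 and 6.93 by dose, and TC32 gave 7.85 and 7.48, then 6.52 and 6.61 and then 6.56 and 6.55. The treated arrays of each line lay under its DMSO arrays, and the doses overlapped each other. ATR fell by 1.63 ± 0.21 and 1.34 ± 0.21 in A673 (adjusted p = 2.4e-13 and 6.35e-10) and by 1.10 ± 0.21 and 1.11 ± 0.21 in TC32 (adjusted p = 1.76e-06 and 3.56e-07). The TC32 value at 500 nM did not pass the test on the relative scale (-0.32 ± 0.14, adjusted p = 0.0521), and quantile normalisation turned it to 0.0078.

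CHEK1, the kinase downstream of ATR, read 10.74 and 10.49, then 9.97 and 10.04 and then 9.90 and 9.23 by dose in A673 and 9.27 and 9.06, then 9.18 and 9.07 and then 8.07 and 8.13 in TC32. In TC32 the 100 nM arrays lay between the DMSO arrays, and the 500 nM arrays lay well below both. CHEK1 fell by 1.05 ± 0.20 and 1.06 ± 0.20 at 500 nM, and by 0.61 ± 0.20 at 100 nM in A673, a call that was lost without the first DMSO array (-0.49) or either 100 nM array (-0.57 and -0.65) and whose sign turned on the relative scale (0.008). At 100 nM in TC32 the difference was -0.04 ± 0.20 (adjusted p = 0.933). CHEK2, the kinase downstream of ATM, fell by 1.11 ± 0.21 and 1.14 ± 0.21 in A673 and by 0.78 ± 0.21 and 1.19 ± 0.21 in TC32. Its TC32 call at 100 nM was lost without the first DMSO array (-0.68) or the second 100 nM array (-0.71).

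The mediators that carry the signal to these kinases all fell at 500 nM as deposited, except for TIMELESS in TC32. TOPBP1, which activates ATR, fell by 1.30 ± 0.20 and 1.56 ± 0.20 in A673 and by 0.68 ± 0.20 and 1.63 ± 0.20 in TC32. CLSPN, the adaptor between ATR and CHEK1, fell by 0.93 ± 0.21 and 1.34 ± 0.21 and by 0.66 ± 0.21 and 1.26 ± 0.21. At 100 nM in TC32 TOPBP1 lost its call without the first DMSO array (-0.64) or the first 100 nM array (-0.59), and CLSPN without the first DMSO array (-0.49) or either 100 nM array (-0.72 and -0.60). TIMELESS, which with TIPIN holds the fork together, read 9.96 and 9.93, then 9.26 and 9.24 and then 9.53 and 8.88 in A673 and 9.28 and 9.12, then 9.001 and 8.94 and then 8.95 and 8.88 in TC32. The TC32 arrays moved little with dose, and the differences there were -0.23 ± 0.21 and -0.28 ± 0.21 (adjusted p = 0.5 and 0.216), while A673 fell by 0.69 ± 0.21 and 0.74 ± 0.21. TIMELESS was higher on the relative scale at 500 nM in TC32, by 0.51 ± 0.11 (adjusted p = 0.00053), and its relative difference in A673 was 0.09. As deposited it was called lower at 500 nM in TC32 with only the TC32 arrays in the fit (limma adjusted p = 0.0161) and without either A673 array at 500 nM, so the direction of its call in TC32 depended on the scale. TIPIN, its partner, read 10.26 and 10.09, then 9.74 and 9.86 and then 9.14 and 8.68 in A673 and 9.60 and 9.42, then 9.31 and 9.40 and then 7.60 and 7.83 in TC32. The 500 nM arrays stood below the others in both lines. TIPIN fell by 1.27 ± 0.21 and 1.80 ± 0.21 at 500 nM and did not pass the test at 100 nM (-0.38 ± 0.21 and -0.16 ± 0.21, adjusted p = 0.0959 and 0.682).

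RNF8, the ubiquitin ligase that marks chromatin around breaks, had its main fall between the doses. Its arrays read 9.15 and 9.17 under DMSO, 8.53 and 8.69 with 100 nM and 8.01 and 7.37 at 500 nM in A673, and 8.33 and 8.16, then 7.76 and 7.73 and then 6.09 and 6.13 in TC32. The 500 nM arrays of TC32 lay far under its other arrays. RNF8 fell by 1.47 ± 0.21 in A673 and 2.14 ± 0.21 in TC32 at 500 nM (4.4-fold in TC32, adjusted p = 1.26e-23). At 100 nM it fell by 0.55 ± 0.21 in A673, which lost its call without any array of the A673 DMSO and 100 nM groups (-0.63 to -0.47) and turned to 0.07 on the relative scale, and the TC32 difference was -0.50 ± 0.21 (adjusted p = 0.0575). MDC1, the scaffold that recruits RNF8, read 9.49 and 9.29, then 8.29 and 8.38 and then 8.68 and 8.04 by dose in A673 and 8.57 and 8.29, then 7.38 and 7.42 and then 7.60 and 7.58 in TC32. It was near its low level at 100 nM, with falls of 1.06 ± 0.21 and 1.03 ± 0.21 in A673 and 1.03 ± 0.21 and 0.84 ± 0.21 in TC32. TP53BP1, which steers breaks away from recombination and lay under the level of testing, read between 4.88 and 6.11 in A673 and between 4.99 and 5.69 in TC32.

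The Fanconi core complex and its ubiquitin-conjugating enzyme UBE2T had 7 tested genes, of which 6 fell at 100 nM in A673, 2 fell and 1 rose in TC32, and 6 fell at 500 nM in each line as deposited. Among all tested genes the lower share was 58.7% in A673 and 20.9% in TC32 at 100 nM, and 82.5% and 62.9% at 500 nM. After median subtraction 2 of the 7 were lower at 100 nM in each line (17.1% and 21.2% of all tested genes), and at 500 nM 5 were lower in A673 (27.4%) and 4 in TC32 (30.8%), with 1, FANCC, higher each time. FANCF, the adaptor of the core complex, read 9.02 and 8.97, then 7.45 and 7.30 and then 7.13 and 6.73 by dose in A673 and 7.75 and 7.48, then 6.37 and 6.31 and then 5.90 and 5.61 in TC32. Each dose was lower than the one before without overlap. FANCF fell by 1.62 ± 0.21 and 2.06 ± 0.21 in A673 and by 1.28 ± 0.21 and 1.86 ± 0.21 in TC32. UBE2T read 10.88 and 10.70, then 9.58 and 9.43 and then 9.56 and 9.11 by dose in A673 and 11.60 and 11.45, then 10.22 and 10.43 and then 10.34 and 10.42 in TC32. It fell by 1.28 ± 0.19 and 1.45 ± 0.19 in A673 and by 1.196 ± 0.19 and 1.14 ± 0.19 in TC32, with most of the change at 100 nM. FANCE, FANCG, FANCL (the ligase subunit) and FANCB fell in A673 at 100 nM by 0.65 to 0.87 and at 500 nM by 0.96 to 1.49 (FANCG least and FANCE most at 500 nM). In TC32 the same genes differed by -0.47 to -0.00 at 100 nM with no call and fell by 0.69 to 1.79 at 500 nM. None of these 4 genes passed the test at 100 nM on the relative scale, and FANCG had a relative difference of 0.11 in TC32 at 500 nM. The calls of FANCE and FANCL in A673 at 100 nM were lost without the second 100 nM array (-0.62 and -0.63), and that of FANCG in TC32 at 500 nM without the first DMSO array (-0.61).

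FANCC, another core subunit, was not lower than DMSO at 100 nM. It read 7.53 and 7.52, then 7.68 and 7.68 and then 7.58 and 6.94 by dose in A673 and 6.495 and 6.37, then 7.203 and 7.08 and then 6.64 and 6.41 in TC32. The 100 nM arrays were the highest pair in TC32, and in A673 they stood just above the DMSO arrays. FANCC rose by 0.71 ± 0.21 in TC32 at 100 nM (adjusted p = 0.00403), a call lost without the second DMSO array (0.65) or the first 100 nM array (0.65). The other differences were 0.16 ± 0.21 in A673 at 100 nM and -0.26 ± 0.21 and 0.10 ± 0.21 at 500 nM in A673 and TC32 (adjusted p = 0.492, 0.228 and 0.689). Without the first A673 array at 500 nM the value of that dose and line was -0.58 and called lower (limma adjusted p = 0.0018), and over all left-out arrays it ran from -0.58 to 0.06. FANCC was higher on the relative scale in all 4 comparisons with DMSO, by 0.57 to 0.92, including A673 at 500 nM where the sign as deposited was negative. FANCM, a fork helicase under the level of testing, read 6.25 and 6.05 under DMSO, 6.79 and 6.95 with 100 nM and 5.51 and 5.38 with 500 nM in A673, and 5.28 and 5.14, then 6.85 and 6.83 and then 5.10 and 4.82 in TC32, so its 100 nM arrays were the highest of each line.

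FANCI, the substrate that the core complex ubiquitinates together with FANCD2, read 9.85 and 9.83, then 8.86 and 8.86 and then 9.04 and 8.58 by dose in A673 and 9.56 and 9.38, then 9.03 and 8.98 and then 8.996 and 9.05 in TC32. The treated arrays lay under the DMSO arrays, and the arrays of the doses overlapped. FANCI fell by 0.97 ± 0.21 and 1.03 ± 0.21 in A673 (adjusted p = 1.51e-05 and 2.01e-06). In TC32 the differences were -0.46 ± 0.21 (adjusted p = 0.0836) and -0.45 ± 0.21 (adjusted p = 0.048). The TC32 call at 500 nM rested near the threshold, was lost in 10 of the 12 fits that left out 1 array, all but those without an A673 array at 500 nM (-0.54 to -0.36), and had the opposite sign on the relative scale (0.35 ± 0.11, adjusted p = 0.0109) and after quantile normalisation (0.30).

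Of the structure-specific nucleases, which cut branched DNA, SLX4 and MUS81 fell at both doses in both lines. SLX4, the scaffold of the nucleases, read 8.62 and 8.53, then 7.11 and 6.89 and then 6.94 and 6.43 by dose in A673 and 7.90 and 7.66, then 6.38 and 6.27 and then 6.20 and 5.88 in TC32. MUS81, a catalytic subunit, read 9.35 and 9.21, then 7.51 and 7.39 and then 7.50 and 7.04 in A673 and 8.71 and 8.56, then 6.95 and 7.08 and then 6.52 and 6.45 in TC32. For both genes the treated arrays were far under the DMSO arrays, and most of the fall was present at 100 nM. SLX4 fell by 1.58 ± 0.21 and 1.89 ± 0.21 in A673 and by 1.46 ± 0.21 and 1.74 ± 0.21 in TC32. MUS81 fell by 1.83 ± 0.21 and 2.01 ± 0.21 in A673 and by 1.63 ± 0.21 and 2.15 ± 0.21 in TC32, a 4.44-fold lower signal at 500 nM in TC32 (adjusted p = 5.97e-24). ERCC4, the XPF nuclease, fell by 0.56 ± 0.22 and 0.80 ± 0.22 in A673 and by 0.81 ± 0.22 at 500 nM in TC32, and on the relative scale its differences were 0.06, 0.03 and -0.02. Its A673 call at 100 nM was lost without the first DMSO array (-0.38) or either 100 nM array (-0.54 and -0.58).

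When the doses were compared directly, some genes fell further at 500 nM and others did not. The shares of these genes called lower lay near those of all tested genes. From 100 nM to 500 nM, 10 of the 36 genes fell in A673 (26.7% of all tested genes did) and 0 rose (0.897%), and in TC32 21 fell (55.5%) and 1, BRCA1, rose (1.09%). At an unadjusted limma p under 0.05, 0 genes were higher in A673 (1.35% of all tested genes). Quantile normalisation called 14 higher there, with no share over all tested genes counted. The 10 genes that fell in A673 also fell in TC32 (26.1% of all tested genes fell in both, and 0.473% rose in both): BARD1, PALB2, RAD54L, RAD54B, BLM, ATM, TIPIN, RNF8, FANCE and FANCL. PALB2 fell by 1.72 ± 0.21 and 1.54 ± 0.21, ATM by 1.11 ± 0.21 and 1.54 ± 0.21, TIPIN by 0.89 ± 0.21 and 1.64 ± 0.21, and RNF8 by 0.92 ± 0.21 and 1.63 ± 0.21 between the doses in A673 and TC32. The count for A673 was 28 without its first 500 nM array and 7 at the lowest when another array was left out. The calls of BLM were lost in A673 without either 100 nM array (-0.62 and -0.71) or the second 500 nM array (-0.43) and in TC32 without the second array of either dose (-0.47 and -0.61). RAD54L lost its A673 call without the first 100 nM array (-0.67) or the second 500 nM array (-0.41), FANCL its A673 call without either 100 nM array (-0.54 and -0.68), and BARD1 its TC32 call without the first 500 nM array (-0.61). On the relative scale 8 of the 10 remained lower in both lines, without BARD1 and BLM (21.6% of all tested genes were lower in both).

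BRCA1 had the largest increase from 100 nM to 500 nM of the 36 genes in both lines. The difference of 500 nM minus 100 nM was 0.36 ± 0.21 in A673 (adjusted p = 0.232) and 0.72 ± 0.21 in TC32 (adjusted p = 0.00176) as deposited, and in both lines every 500 nM array lay above every 100 nM array. Such a non-overlap upwards was shared by 2.78% of all tested genes in A673 and 4.6% in TC32, where MDC1 showed it too. The TC32 call was lost without the first 500 nM array (0.56, adjusted p = 0.0816), and the A673 difference passed without the second 500 nM array (0.59). The relative differences were 0.57 ± 0.13 and 1.30 ± 0.13 (adjusted p = 0.000883 and 1.06e-08), and both passed in 12 of 12 fits that each left out 1 array, which were added after the data had been seen.

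By their group means as deposited, 6 of the 36 genes were lowest at 100 nM in A673, namely BRCA1, RAD51D, XRCC3, WRN, ATR and MDC1, where 22.6% of all tested genes were. In TC32 these were 4 genes, BRCA1, MDC1, UBE2T and FANCI, where 7.87% were. Means that step down at each dose were found for 27 genes in A673 and 29 in TC32 (71.6% and 49.6% of all tested genes), and RAD54B, ATM and FANCC were highest at 100 nM in both lines (4.81% and 41.6%). After median subtraction 15 genes in A673 and 18 in TC32 were lowest at 100 nM (20.4% and 22.3% of all tested genes). Means then stepped down at each dose for 14 and 10 genes (18.5% and 15.9%), and were highest at 100 nM for 7 and 8 (28.8% and 28.9%). On the relative scale 4 genes were called higher at 500 nM than at 100 nM in A673 (10.4% of all tested genes), and these were BRCA1, ATR (0.50 ± 0.14), XRCC3 (0.42 ± 0.15) and RAD51D (0.40 ± 0.14), against 10 called lower (25.1%). In TC32 10 genes were called higher (29.1%), among them BRCA1, MDC1 (0.78 ± 0.12), UBE2T (0.64 ± 0.11), FANCI (0.60 ± 0.11) and ATR (0.58 ± 0.14), against 11 called lower (29.8%). The other 5 were TIMELESS, RAD50, XRCC3, RAD51C and SLX4, at 0.30 to 0.53. BRCA1, XRCC3 and ATR were higher in both lines on the relative scale (7.74% of all tested genes were). The relative call of ATR held in 10 of 12 left-out fits in A673 and 12 of 12 in TC32, and that of XRCC3 in 9 and 10. As deposited, only BRCA1 in TC32 of these was called, and the TC32 values of ATR, XRCC3, RAD51C, RAD50, TIMELESS and SLX4 were negative, from -0.29 to -0.01.

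**Figure D3:**
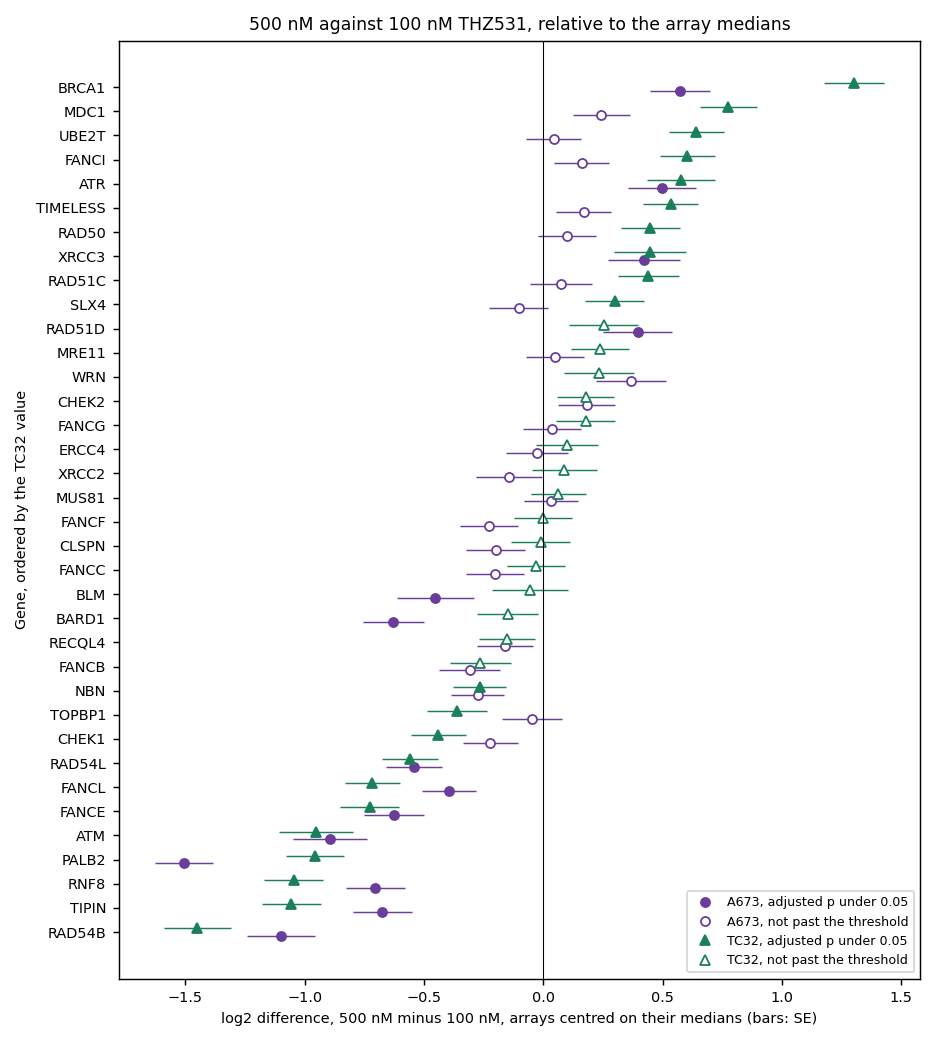
Difference of 500 nM minus 100 nM THZ531 on the relative scale for the 36 tested genes (log2, bars are the SE of the limma fit), ordered by the TC32 value, with purple circles for A673 and green triangles for TC32, filled where the adjusted p was under 0.05. BRCA1 lies at the top in both lines, at 0.57 in A673 and 1.30 in TC32, and PALB2, RNF8, TIPIN and RAD54B lie at the bottom.

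The effect of THZ531 was then compared between the lines as the difference of the log2 effects, TC32 minus A673. As deposited no gene of the 36 passed the limma test at either dose, where 0.0887% of all tested genes were called lower and 2.22% higher at 100 nM and 1.28% lower and 0.552% higher at 500 nM. At an unadjusted limma p under 0.05, 8 genes had a higher effect in TC32 at 100 nM (RAD54L, RAD54B, NBN, ATM, TOPBP1, CHEK1, FANCB and FANCL) and 0 a lower one. Among all tested genes 24.8% were higher and 0.443% lower by that measure, so the higher share of these genes lay near that of all. At 500 nM RNF8 was lower and FANCI higher (5.94% and 3.80% of all tested genes). Without either A673 array at 500 nM, 15 genes passed at 100 nM, and without the first of them 11 passed as higher at 500 nM. On the relative scale 0 genes passed at 100 nM (1.76% of all tested genes were lower and 0.857% higher). At an unadjusted limma p under 0.05, 6 were lower and 2 higher there (8.47% and 6.60% of all tested genes). Quantile normalisation called 2 lower, with no share over all tested genes counted. At 500 nM 3 genes passed on that scale (6.75% of all tested genes were lower and 3.04% higher): RNF8 at -0.71 ± 0.18, TIPIN at -0.57 ± 0.17 and FANCI at 0.54 ± 0.16 (adjusted p = 0.0116, 0.0405 and 0.0367). The relative effect of FANCI was -0.20 ± 0.11 in A673 and 0.35 ± 0.11 in TC32, and those of RNF8 were -0.64 ± 0.12 and -1.34 ± 0.12.

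**Figure D4:**
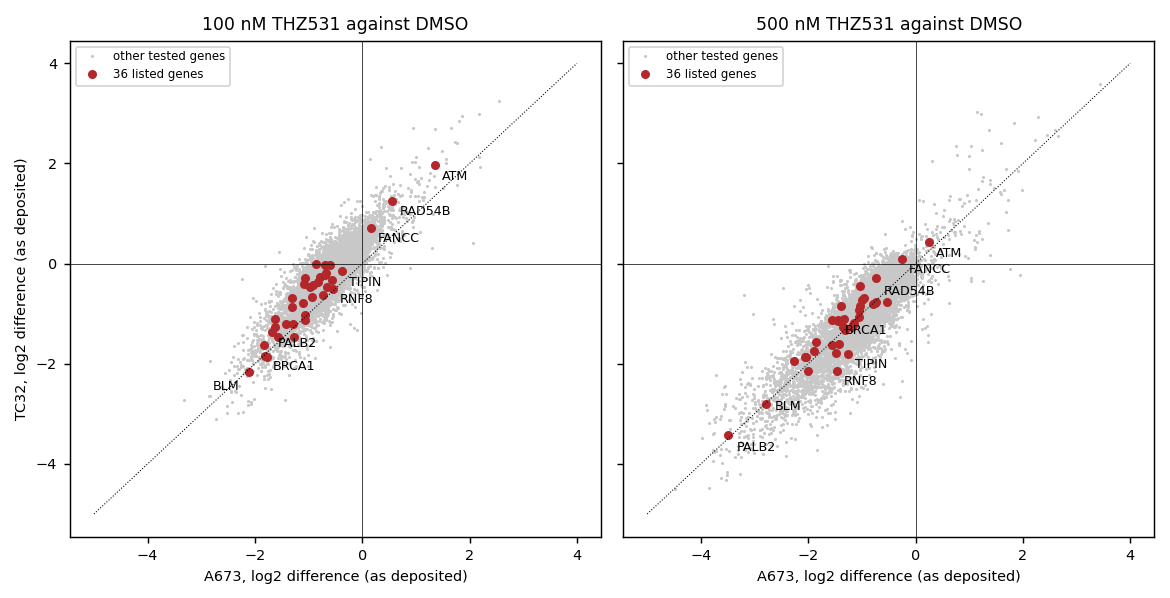
Log2 difference from DMSO as deposited in A673 (horizontal) and TC32 (vertical) at 100 nM on the left and 500 nM on the right, with the 36 tested genes in red, all other tested genes in grey and a dotted line of equal effect. BLM and PALB2 lie at the lower end in both lines, and ATM lies above 0 in both at 100 nM.

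Before treatment the lines were also compared, and the shares of these genes called lower lay near those of all tested genes. Under DMSO 30 of the 36 genes were lower in TC32 than in A673 as deposited (77.4% of all tested genes were) and 1, UBE2T, was higher (5.13%). On the relative scale 13 were lower (33.9%) and 6 higher (21.4%). The largest falls from A673 to TC32 as deposited were those of RAD54L (-1.60 ± 0.21), ATM (-1.53 ± 0.21), CHEK1 (-1.45 ± 0.20) and FANCF (-1.38 ± 0.21), and all 4 were also lower on the relative scale (-0.91, -0.84, -0.76 and -0.69). UBE2T was higher in TC32 by 0.73 ± 0.19 as deposited, and by 1.43 ± 0.11 on the relative scale. The other 5 higher relative values were those of BRCA1 (0.78 ± 0.13), WRN (0.77 ± 0.15), RAD54B (0.63 ± 0.14), NBN (0.62 ± 0.11) and FANCI (0.33 ± 0.11), of which RAD54B, NBN and FANCI had a negative difference as deposited with no call.

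Further genes of recombination, the Fanconi pathway and the checkpoint, from a list outside the 49, are given for comparison, with 47 of them tested. That list was also chosen with earlier results of these data known. As deposited, at 100 nM 40 fell and 0 rose in A673 and 25 fell and 1 rose in TC32, and at 500 nM 46 fell in A673 and 42 in TC32 with 0 rising. The shares that fell over all tested genes were 58.7% in A673 and 20.9% in TC32 for the lower dose, and 82.5% and 62.9% for the higher. After median subtraction 24 of the 47 were lower and 5 higher at 100 nM in A673 (17.1% and 24.4% of all tested genes), and 25 were lower and 7 higher in TC32 (21.2% and 30.6%). With 500 nM 24 were lower and 6 higher on that scale in A673 (27.4% and 29.6%), and 25 were lower and 9 higher in TC32 (30.8% and 41.3%). Their medians in A673 and TC32 were -0.97 and -0.68 for the lower dose and -1.19 and -1.11 for the higher as deposited, and -0.35 and -0.47 and then -0.36 and -0.32 on the relative scale. MMS22L, which helps stalled forks recover, had the lowest difference at 100 nM, -2.37 ± 0.21 in A673 and -2.54 ± 0.21 in TC32, and like BRCA1 it was higher at 500 nM than at 100 nM, by 0.74 ± 0.21 and 0.63 ± 0.21 (limma adjusted p = 0.00223 and 0.00573). At 500 nM the lowest were REV3L, the catalytic subunit of polymerase zeta, in A673 (-2.92 ± 0.21) and ETAA1, an ATR activator, in TC32 (-3.47 ± 0.22). RIF1, which limits end resection, was the gene that rose at 100 nM in TC32 (0.72 ± 0.21, adjusted p = 0.00299). Of 10 tested genes of non-homologous end joining, the competing repair route, 8 and 2 fell at 100 nM and 9 and 7 at 500 nM in A673 and TC32 as deposited, with medians of -0.62 and -0.34 at 100 nM and -0.96 and -0.94 at 500 nM. The shares over all tested genes are those just given, and those of these genes lay near them in TC32 at 100 nM and in both lines at 500 nM. In relative terms 3 of the 10 were lower and 1 higher at 100 nM in each line, and at 500 nM 2 were lower in A673 and 5 in TC32, with 3 higher in each. The relative medians were 0.003 and -0.13 at 100 nM and -0.12 and -0.14 at 500 nM.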

How the data were processed

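Total RNA of 12 samples (2 cell lines, 3 treatments, 2 arrays each) was labelled with biotin and hybridised to arrays, per the labels. The submitters' processing notes name MAS5, GRCh37 and hg19 without stating their roles. The deposited values, made by the authors, are on a log2 scale, and were used as deposited. The table held 49395 probe sets. A single gene was named for 44994, several genes for 1832 and no gene for 2569. Entries with 3 decimals were used (46566), and those with fewer (2829) were left out. Where a gene had several value sets, the one with the highest mean was used, and 116 genes whose values were shared with another gene were dropped, which left 16913 genes.

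The 10148 genes with a mean log2 value at or above the 40th percentile (5.94) were fitted with limma 3.58.1 in R 4.3.3, with 1 mean per group over all 12 arrays and a variance trend in eBayes. P-values are those of limma's moderated test, two-sided, with Benjamini-Hochberg adjustment over all tested genes, and called means an adjusted p under 0.05. Errors beside differences are the SE of the fit. For the values as deposited the estimated prior degrees of freedom were infinite, so genes of like signal shared 1 variance and very small p-values rest on that model. On centred arrays they were 15.8. The fit was checked on simulated data. The members and gene lists were chosen with earlier results of these data known.

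Alternatives were centred arrays, quantile normalisation, other filters, no trend, 1 line at a time, a replicate block, a mean over value sets and each array left out. Apart from centred arrays, only the listed genes were counted in them, not all tested genes. Values of every array are given for the 6 lowest and 3 highest differences per dose and line, genes higher at 500 nM than at 100 nM, genes whose effect differed between lines, and BRCA1, ATM, ATR, CHEK1 and FANCI. Promoter windows are from RefSeq (GRCh38.p14). The dose of 100 nM that the DMSO labels also carry was read as not applying.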

Additional observations from a re-analysis of the deposited data

Results flagged for a closer look

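Relative to the array medians, the effect of 500 nM THZ531 differed between the lines for 3 genes, by limma's test of TC32 minus A673 adjusted over all tested genes. RNF8 had a lower effect in TC32, by -0.71 on the log2 scale (adjusted p = 0.0116), and kept its call in 10 of 12 fits that left out 1 array, over -0.84 to -0.57. TIPIN also had a lower effect in TC32, at -0.57 (adjusted p = 0.0405), with a call in 4 of 12 such fits over -0.72 to -0.42. FANCI had a higher effect in TC32, at 0.54 (adjusted p = 0.0367), with a call in 4 of 12 fits over 0.43 to 0.66. As deposited none of the 3 passed the test.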

How the results depend on the processing

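The 191 single-gene differences counted here left out some tested genes where doses or lines were compared directly. Among the 191, a turn is counted where the sign changed and the difference was called as reported or under the alternative. By that count both alternative scalings turned directions, and no left-out array did. The filters, the variance setting and the block leave the fitted differences themselves unchanged. Each used gene had 1 set of values, so none of these alternatives, nor the choice of value set, could turn a direction. Differences without a call did cross 0 when 1 array was left out, among them those of FANCC at 500 nM in A673 (-0.58 to 0.06), ATR from 100 nM to 500 nM in A673 (-0.05 to 0.62), XRCC3 from 100 nM to 500 nM in TC32 (-0.43 to 0.15) and CHEK1 at 100 nM in TC32 (-0.15 to 0.07). With arrays centred on their medians the counts of genes that moved by over 1.5 times were 20 lower at 100 nM in A673, 22 lower and 2 higher at 500 nM in A673, 4 higher at 500 nM in TC32, 4 higher from 100 nM to 500 nM in A673, 11 lower and 10 higher from 100 nM to 500 nM in TC32, 2 lower and 1 higher for the difference between the lines at 500 nM and 13 lower and 6 higher for TC32 against A673 under DMSO. With quantile normalisation they were 19 lower at 100 nM in A673, 19 lower and 3 higher at 500 nM in A673, 18 lower and 7 higher at 500 nM in TC32, 14 higher from 100 nM to 500 nM in A673, 10 lower and 16 higher from 100 nM to 500 nM in TC32, 2 lower for the difference between the lines at 100 nM, 3 lower and 2 higher for the difference between the lines at 500 nM and 11 lower and 10 higher for TC32 against A673 under DMSO. With a filter at the 60th percentile of mean signal, where fewer genes are tested, they were 0 higher at 100 nM in A673, 11 lower and 0 higher at 100 nM in TC32, 6 lower from 100 nM to 500 nM in A673, 12 lower and 0 higher from 100 nM to 500 nM in TC32 and 19 lower for TC32 against A673 under DMSO. With only the arrays of 1 line in the fit, they were 1 higher at 100 nM in A673 and 1 higher at 500 nM in TC32, and such fits cannot compare the lines.

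Centring turned 25 of the 191 single-gene differences (log2) to positive. The values were CHEK1 0.008, RNF8 0.067 and ERCC4 0.058 at 100 nM in A673. They were RAD51D 0.10, XRCC3 0.31, RAD54B 0.074, TIMELESS 0.094, FANCC 0.57 and ERCC4 0.0315 at 500 nM in A673. They were RAD51D 0.025, XRCC3 0.033, RAD54B 0.0135, MRE11 0.0705, TIMELESS 0.51, FANCG 0.11 and FANCI 0.35 at 500 nM in TC32. They were RAD51C 0.44, XRCC3 0.45, RAD50 0.45, ATR 0.58, TIMELESS 0.53 and SLX4 0.30 from 100 nM to 500 nM in TC32. They were RAD54B 0.63, NBN 0.62 and FANCI 0.33 for TC32 against A673 under DMSO. Outside the 191, centring also turned called falls from A673 to TC32 under DMSO, for BARD1, RAD51D, RAD50, TOPBP1, TIPIN, MUS81 and ERCC4. From 100 nM to 500 nM in TC32, centring likewise turned the called falls of XRCC2, MUS81 and ERCC4. The largest of these further values was that of TOPBP1, at 0.20. For quantile normalisation only the 191 were counted, and it turned 35 of them. The values were RNF8 0.12, FANCE 0.0692 and ERCC4 0.0784 at 100 nM in A673. They were RAD51D 0.20, XRCC3 0.41, RAD54B 0.0383, MRE11 0.10, RECQL4 0.0043, TIMELESS 0.23, MDC1 0.0545, FANCC 0.73, FANCG 0.14 and ERCC4 0.076 at 500 nM in A673. They were RAD51D 0.24, XRCC3 0.0442, RAD54B 0.24, MRE11 0.34, RECQL4 0.14, ATR 0.0078, TIMELESS 0.54, MDC1 0.21, FANCB 0.0077, FANCG 0.40, FANCI 0.30 and ERCC4 0.0575 at 500 nM in TC32. They were BARD1 0.0523, RAD51C 0.66, XRCC3 0.49, RAD50 0.66, ATR 0.81, TIMELESS 0.64 and SLX4 0.43 from 100 nM to 500 nM in TC32. They were RAD54B 0.54, NBN 0.89 and FANCI 0.56 for TC32 against A673 under DMSO. Centring moved every gene of a comparison by the same amount. Why the array medians differed was not tested.

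Same-numbered arrays of a line deviated from their group means with correlations of -0.16 to 0.24, so the replicate numbers were not taken to pair the arrays. With the replicate number as a block, the counts that moved were 1 higher at 500 nM in TC32 and 1 higher for the difference between the lines at 100 nM, and of the 191 single-gene differences 3 gained a call and 0 lost one. With the block on centred arrays the counts were 20 lower at 100 nM in A673, 2 higher at 500 nM in A673, 4 higher at 500 nM in TC32, 5 higher from 100 nM to 500 nM in A673, 10 lower and 10 higher from 100 nM to 500 nM in TC32, 2 lower and 1 higher for the difference between the lines at 500 nM and 13 lower and 6 higher for TC32 against A673 under DMSO, and the turned differences had the same values as with centring alone.

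When 1 array was left out, the counts ran over 27 to 33 lower and 1 to 2 higher at 100 nM in A673, 32 to 35 lower and 0 to 0 higher at 500 nM in A673, 14 to 25 lower and 2 to 3 higher at 100 nM in TC32. They ran over 30 to 34 lower and 0 to 1 higher at 500 nM in TC32, 7 to 28 lower and 0 to 2 higher from 100 nM to 500 nM in A673, 15 to 25 lower and 0 to 1 higher from 100 nM to 500 nM in TC32. They ran over 0 to 0 lower and 0 to 15 higher for the difference between the lines at 100 nM, 0 to 3 lower and 0 to 11 higher for the difference between the lines at 500 nM, 24 to 31 lower and 1 to 1 higher for TC32 against A673 under DMSO. The counts for the effects compared between the lines moved most with the A673 arrays at 500 nM: 15 genes had a higher effect in TC32 at 100 nM without either of them, 11 had a higher effect at 500 nM without the first, and 3 a lower one without the second. From 100 nM to 500 nM in A673, 28 genes fell without the first 500 nM array and 7 without the first 100 nM array, and 2 rose without the second 500 nM array. At 100 nM the lowest count in A673, 27, came without the first DMSO or the second 100 nM array, and that in TC32, 14, without the first DMSO array. In TC32 the 1 rise of that step was lost without the first 500 nM array, and at 100 nM in A673 1 gene was higher without the first DMSO or the second 100 nM array.

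With 2 arrays a group the model had 6 residual degrees of freedom, and the number of arrays limits the precision. Means of 11 of the 36 genes in TC32 at 500 nM lay under 5.94, the level of testing. These were PALB2, XRCC2, XRCC3, RAD54L, BLM, ATM, CLSPN, FANCB, FANCE, FANCF and ERCC4. In TC32 at 100 nM the means of XRCC2, XRCC3 and BLM were also under it. How far such low signals stand above background was not measured here. How the arrays were scaled is not given in the sources used here, so the as-deposited and relative counts are both needed to read a direction.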
